A study of Mus musculus with 23 samples.

Results

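The genes described here are 9 feedback inhibitors of mitogen-activated protein kinase (MAP kinase) signaling: the dual-specificity phosphatases Dusp1, Dusp4, Dusp6, Dusp8, Dusp10 and Dusp16, and the Sprouty genes Spry1, Spry2 and Spry4. They were picked by gene symbol, with earlier results of these data known, from the 14651 genes measured in brown adipose tissue (BAT). All 9 were found. RNA was sequenced from the BAT of 23 male C57BL/6 mice aged 8 to 12 weeks. The control mice carried the floxed gene of the pore-forming uniporter subunit without Cre (Mcu[fl/fl]), and the BAT-Mcu-KO mice, called knockouts below, carried the same floxed gene together with Ucp1-Cre, in which the Ucp1 promoter of brown adipocytes drives the recombinase. Mice of both genotypes stayed at room temperature (RT; control, n = 6; BAT-Mcu-KO, n = 6) or were placed singly in pre-cooled cages without bedding at 4°C for 6 h (control, n = 5; BAT-Mcu-KO, n = 6). Cells of the tissue that do not use the Ucp1 promoter keep Mcu, and the effect of the transgene itself cannot be told apart from that of losing Mcu. The mice at 4°C had no food unless stated otherwise, whereas the colony was kept at RT in groups with chow, and what the mice at RT had during these hours is not given in the sources used here, so cold, single housing and lack of food cannot be told apart.

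MAP kinase cascades relay signals from growth factor receptors and from stress to the nucleus through the kinases ERK, JNK and p38. Dual-specificity phosphatases switch these kinases off by removing the phosphates from their activation loop, and Sprouty proteins act further upstream, between receptor tyrosine kinases and ERK. Many of these inhibitors are themselves transcribed in response to the signal they end, so their transcripts serve as a common readout of recent signaling. In brown adipocytes norepinephrine acts through cyclic AMP and protein kinase A, and also activates p38 and ERK. The values described here are of RNA alone. Neither the activity of these kinases nor the proteins of the genes described were measured.

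All 9 transcripts were higher at 4°C than at RT in both genotypes, and none of the 9 passed the test between genotypes at either temperature. In control mice 6 of the 9 rose by at least 1 on the log2 scale, with Dusp8 (3.19), Spry4 (2.97), Dusp6 (2.90), Dusp1 (2.59), Dusp16 (2.29) and Dusp4 (1.52) in that order. The remaining 3 rose by less: Spry2 by 0.81, Dusp10 by 0.76 and Spry1 by 0.66. A gene was called changed at a limma adjusted p under 0.05 over all 14651 genes, on the scale log2(normalized count + 1), which understates the change of low genes. Cold changed a large share of the transcriptome. In control mice 46.0% of all genes were called, 22.3% higher and 23.7% lower, and in knockouts 43.3% were called, 21.4% higher and 21.9% lower. With each library scaled to its 75th percentile instead, the median of all genes moved from −0.02 to −0.13 in control mice, and the higher genes made up 38.2% of the calls in place of 48.5%. The 9 genes were higher under that scaling too. Calls that were higher in both genotypes made up 17.3% of all genes, against 9 of these 9. The share of all genes that were called and at least 2-fold higher was 7.44% in control and 6.40% in knockouts, against 6 of the 9 in each. The members had a median log2 fold change of 2.29 in control and 1.73 in knockouts, beside −0.02 over all genes in both. Because the 9 genes and the lists below were chosen with earlier results known, such shares describe them and are no test of enrichment.

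**Figure D1:**
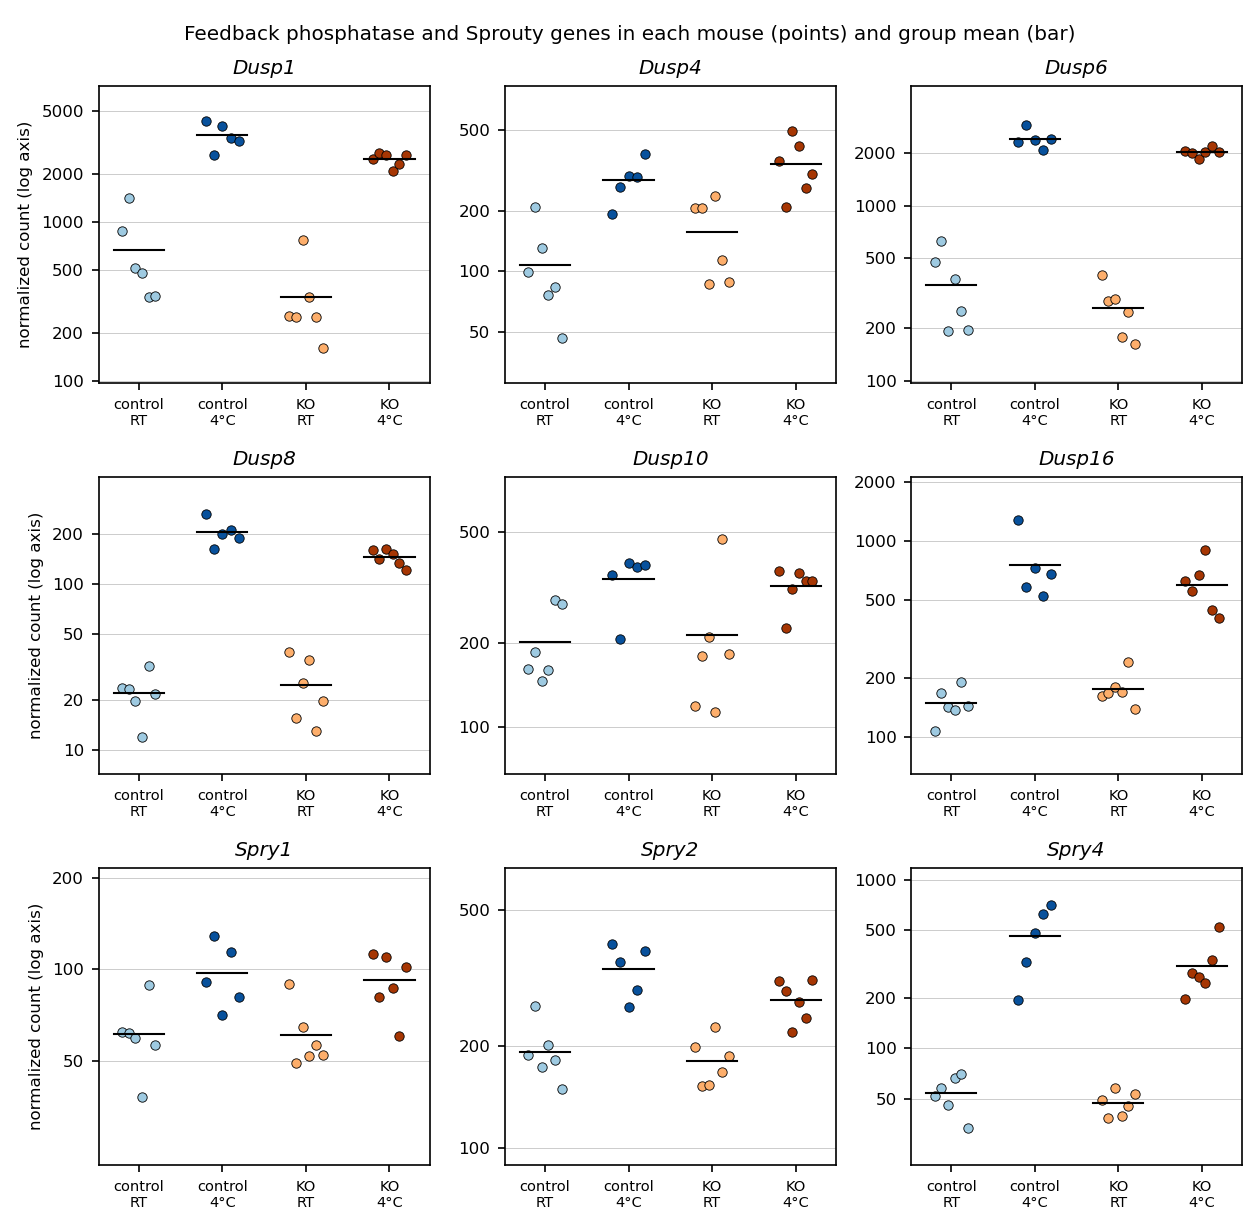
Normalized count of each of the 9 genes in each mouse, on log axes whose range differs between panels. Points are mice and bars are group means of control and knockout (KO) mice at RT and 4°C; for Dusp1, Dusp6, Dusp8, Dusp16 and Spry4 every mouse at 4°C lies above every mouse at RT of its genotype, and for Dusp4, Dusp10, Spry1 and Spry2 the groups overlap.

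The libraries held 7129271 to 21006347 reads, of which 23.1 to 38.1% were mitochondrial. Mcu, the targeted gene, was lower in both knockout groups (15.2 to 42.4 at RT and 24.0 to 39.9 at 4°C, n = 6 each) than in control mice (81.4 to 136 at RT, n = 6, and 70.8 to 132 at 4°C, n = 5), with no overlap between genotypes. Only exon 2 of Mcu is floxed and reads were not split by exon, so the source of the remaining counts was not tested. The brown adipocyte markers were abundant in every library, with a summed normalized count of 180447 to 326394. In 5 libraries, control replicates 2 and 5 at 4°C and knockout replicates 3, 4 and 6 at RT, the summed skeletal muscle markers reached 25660 to 41360, against 6.22 to 9546 in the other libraries. Calls that changed without these 5 are given beside the genes concerned, and that alternative was added after the data had been seen.

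The genes lie on 9 different chromosomes, so that no 2 of them are neighbors (GRCm38, GENCODE M21). Dusp1 spans chr17:26505590-26562128 on the minus strand, a record that runs past the RefSeq start site used below and overlaps Ergic1 on the other strand. Dusp8 lies at chr7:142079490-142095843 and Dusp16 at chr6:134715468-134792625, both on the minus strand. The Dusp8 record also runs past its RefSeq start site, so the stretches printed below for Dusp1 and Dusp8 lie within their GENCODE records. Dusp6 lies at chr10:99263231-99267489, Dusp4 at chr8:34807297-34819894, Dusp10 at chr1:184013302-184075636 and Spry1 at chr3:37639947-37644598, all on the plus strand. Spry2 lies at chr14:105891947-105896819 on the minus strand. Other annotated genes overlap the spans of Dusp1, Dusp8, Dusp10, Dusp16, Spry1 and Spry4 but not those of Dusp4, Dusp6 or Spry2. These overlaps are of whole gene spans, and overlap of exons was not examined. Reads were counted without regard to strand, so strand could not assign a read from an exon shared by overlapping genes. How such reads were handled is not given in the sources used here.

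Promoters of 7 of the 9 genes, as the 250 bases before the start site in RefSeq (GRCm38.p6), were searched on both strands for the cyclic AMP response element (CRE), TGACGTCA, and for its core, TGACG. The 4 stretches below show the promoters with a match, and that of Dusp6 as a strongly cold-responsive gene without one; capitals mark the CRE or a core that stands alone.
Dusp1, chr17:26508573-26508722, minus strand: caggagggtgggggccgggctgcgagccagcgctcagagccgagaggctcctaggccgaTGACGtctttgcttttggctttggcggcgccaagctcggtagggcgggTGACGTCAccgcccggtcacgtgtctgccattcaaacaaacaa
Dusp8, chr7:142095315-142095444, minus strand: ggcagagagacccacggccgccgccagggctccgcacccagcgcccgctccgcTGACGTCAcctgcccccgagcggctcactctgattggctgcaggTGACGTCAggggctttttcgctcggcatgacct
Dusp16, chr6:134792629-134792728, minus strand: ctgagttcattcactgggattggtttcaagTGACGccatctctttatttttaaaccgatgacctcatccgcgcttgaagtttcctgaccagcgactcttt
Dusp6, chr10:99263081-99263230, plus strand: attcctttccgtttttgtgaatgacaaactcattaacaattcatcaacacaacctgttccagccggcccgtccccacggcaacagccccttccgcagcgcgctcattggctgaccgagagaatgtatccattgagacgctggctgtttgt
Dusp1 held 1 CRE, with its first base at −143 from the start site, and a separate core at −191. Dusp8 held 2, at −107 and −63, and Dusp16 held the core alone, at −70. A CRE was present in 1.55% of all 32851 promoters of the same length and the core, which every CRE contains, in 17.8%. The AP-1 motif TGANTCA (6.75% of all promoters), the ETS motif CCGGAAG (6.91%) and the CArG box bound by serum response factor (1.47%) had no match in any of the 7 promoters. A match is a run of letters and does not show binding, and its part in the change with cold was not tested.

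**Figure D2:**
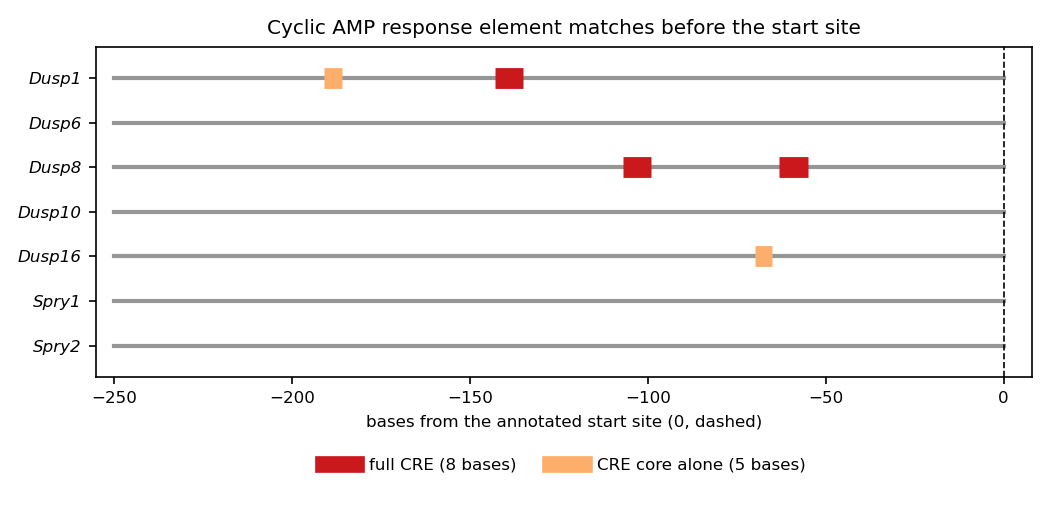
Matches to the cyclic AMP response element in the 250 bases before the annotated start site of 7 of the genes; the horizontal axis gives bases from the start site, red blocks are full elements and orange blocks are cores that stand alone. Dusp8 carries 2 full elements, Dusp1 1 full element and 1 core, and Dusp16 1 core.

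Dusp1 and Dusp4 encode nuclear phosphatases; Dusp1 acts on p38 and JNK as well as ERK, and both are classical inducible genes. Dusp1 had the highest mean level per kilobase of exon among the 9 genes in each of the 4 groups. In knockouts at RT, however, it was above Spry2, the next gene, in only 2 of 6 mice. In control mice at RT the normalized counts of Dusp1 were 338 at the lowest, 498 at the median and 1425 at the highest. At 4°C they were 4296, 2654, 4009, 3373 and 3246. In knockouts they ran from 162 over a median of 255 to 774 at RT and from 2107 over 2564 to 2707 at 4°C. The groups did not overlap in either genotype. The mean was 5.30-fold higher at 4°C in control mice (log2 fold change 2.59, SE 0.31, limma adjusted p = 2.3e-07) and 7.32-fold higher in knockouts (3.05, SE 0.30, adjusted p = 7.8e-09). The spread between mice was wide at RT, with an SD of 63.7% of the mean in control and 65.0% in knockouts, and narrower at 4°C, with 18.5% and 9.38%.

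Dusp4 rose less than Dusp1 in its estimate in both genotypes. Its counts in control mice were 46.7, 91.7 and 208 at RT (lowest, median, highest) and 192, 263, 297, 292 and 380 at 4°C. In knockouts they were 86.4, 160 and 236 at RT and 209, 329 and 497 at 4°C. All but 1 mouse at 4°C lay above every mouse at RT in each genotype. The log2 fold change was 1.52 (SE 0.31, limma adjusted p = 2.6e-04) in control and 1.18 (SE 0.30, adjusted p = 0.00216) in knockouts.

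Dusp6 encodes the cytoplasmic phosphatase that acts mainly on ERK, and its transcript is widely used as a readout of ERK activity. In control mice its normalized counts were 193, 317 and 627 at RT (lowest, median, highest) and 2312, 2891, 2371, 2080 and 2402 at 4°C. In knockouts they were 162, 267 and 400 at RT and 1844, 2025 and 2182 at 4°C. At 4°C the mice differed little from each other, with an SD of 12.3% of the mean in control and 5.36% in knockouts. The mean rose 6.82-fold in control mice (log2 fold change 2.90, SE 0.24, limma adjusted p = 4.4e-10) and 7.74-fold in knockouts (3.01, SE 0.23, adjusted p = 1.1e-10). The closest relative of Dusp6 in the table, Dusp7, was lower at 4°C, from 112 ± 12.9 to 53.4 ± 18.9 in control mice (SD, n = 6 and 5; log2 fold change −1.13, adjusted p = 9.2e-05) and with a log2 fold change of −1.05 (adjusted p = 1.4e-04) in knockouts. Dusp5, the nuclear ERK phosphatase, had 0 to 4 reads per mouse at RT and 0 to 24 at 4°C in control mice, so its values rest on few reads and its calls changed with the setting. It had a log2 fold change of 1.82 in control mice (adjusted p = 0.0300; 0.0566 with a pseudocount of 0.5 and 0.0625 with the other groups left out of the fit) and 1.57 in knockouts (adjusted p = 0.0502). In knockouts it was called by DESeq2 (2.04, adjusted p = 0.0167) and edgeR (1.98, adjusted p = 0.0226), with quantile normalization (adjusted p = 0.0187), without the trend (adjusted p = 0.0493) and with only the compared groups (adjusted p = 0.0257). Leaving out 1 mouse gave adjusted p-values of 5.9e-04 (without control replicate 2 at 4°C) to 0.101 in control mice and 0.0142 to 0.120 in knockouts. Dusp2 and Dusp9 were not analysed here.

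Dusp8, Dusp10 and Dusp16 encode phosphatases that prefer the stress kinases JNK and p38 over ERK. Dusp8 had the largest log2 fold change of the 9 in control mice. Its normalized counts there were 12.0, 22.6 and 32.1 at RT (lowest, median, highest), resting on 11 to 31 reads per mouse, and 263, 161, 198, 212 and 189 at 4°C. In knockouts they were 13.0, 22.6 and 38.8 at RT and 121, 146 and 163 at 4°C. Every mouse at 4°C was far above all mice at RT. The mean rose 9.26-fold in control mice (log2 fold change 3.19, SE 0.24, limma adjusted p = 8.7e-11) and 5.89-fold in knockouts (2.61, SE 0.23, adjusted p = 1.3e-09).

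Dusp16 was also higher in every mouse at 4°C than in any at RT. In control mice its counts were 108, 144 and 192 at RT (lowest, median, highest) and 1280, 583, 734, 527 and 682 at 4°C. In knockouts they were 139, 170 and 241 at RT and 407, 591 and 901 at 4°C. The groups were apart in both genotypes, and control replicate 1 at 4°C stood above the other mice. The log2 fold change was 2.29 (SE 0.20, limma adjusted p = 1.4e-09) in control and 1.73 (SE 0.19, adjusted p = 7.7e-08) in knockouts.

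Dusp10 showed a smaller rise. In control mice its counts were 146, 174 and 285 at RT (lowest, median, highest) and 350, 206, 386, 375 and 382 at 4°C. In knockouts they were 113, 181 and 473 at RT and 226, 334 and 362 at 4°C, so that the highest mouse at RT, replicate 5, was above every mouse at 4°C. The log2 fold change was 0.76 (SE 0.26, limma adjusted p = 0.0205) in control mice and 0.75 (SE 0.25, adjusted p = 0.0179) in knockouts. The call in knockouts was lost by edgeR on the recovered reads (adjusted p = 0.0706), without knockout replicate 1 at RT (0.0536), without replicate 4 at RT (0.0571) and without the 5 muscle-rich libraries (log2 fold change 0.55, adjusted p = 0.160).

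The Sprouty genes split in their size of change. Spry4 was low at RT, with counts of 33.8, 55.3 and 70.4 in control (lowest, median, highest) and 38.6, 47.4 and 58.2 in knockouts. At 4°C it stood at 192, 325, 484, 624 and 704 in control mice and at 197, 271 and 522 in knockouts. No mouse at 4°C was as low as any mouse at RT. The mean rose 8.54-fold (log2 fold change 2.97, SE 0.27, limma adjusted p = 1.8e-09) in control and 6.47-fold (2.61, SE 0.25, adjusted p = 7.4e-09) in knockouts.

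Spry2 and Spry1 rose by less than 2-fold. Spry2 had counts of 149, 184 and 261 in control mice at RT (lowest, median, highest) and of 398, 351, 260, 291 and 378 at 4°C. In knockouts it had 152, 177 and 227 at RT and 219, 279 and 311 at 4°C. Only 1 mouse at 4°C in each genotype lay within the range at RT. The log2 fold change of Spry2 was 0.81 (SE 0.14, limma adjusted p = 5.1e-05) in control and 0.60 (SE 0.14, adjusted p = 9.1e-04) in knockouts. The counts of Spry1 in control mice were 38.1, 60.8 and 89.1 at RT and, at 4°C, 91.0, 129, 70.9, 114 and 81.0. In knockouts it had 49.5, 54.5 and 89.7 at RT and 60.4, 94.3 and 112 at 4°C. Of the mice at 4°C, 3 in each genotype exceeded every mouse at RT. The log2 fold change of Spry1 was 0.66 (SE 0.21, limma adjusted p = 0.0103) in control and 0.59 (SE 0.20, adjusted p = 0.0169) in knockouts. Without the 5 muscle-rich libraries Spry1 was no longer called in control (0.59, adjusted p = 0.0666) or in knockouts (0.51, adjusted p = 0.131).

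The Spred genes encode relatives of the Sprouty proteins that hold back the activation of Raf kinases. Spred2 rose from 56.3 ± 11.5 to 173 ± 22.9 in control mice (SD, n = 6 and 5; log2 fold change 1.62, limma adjusted p = 3.0e-08) and by 1.65 on the log2 scale in knockouts (adjusted p = 1.1e-08). Spred1 rose by 0.88 (adjusted p = 3.6e-04) and 0.81 (adjusted p = 5.3e-04). Spry3 and Spred3 were not analysed here.

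**Figure D3:**
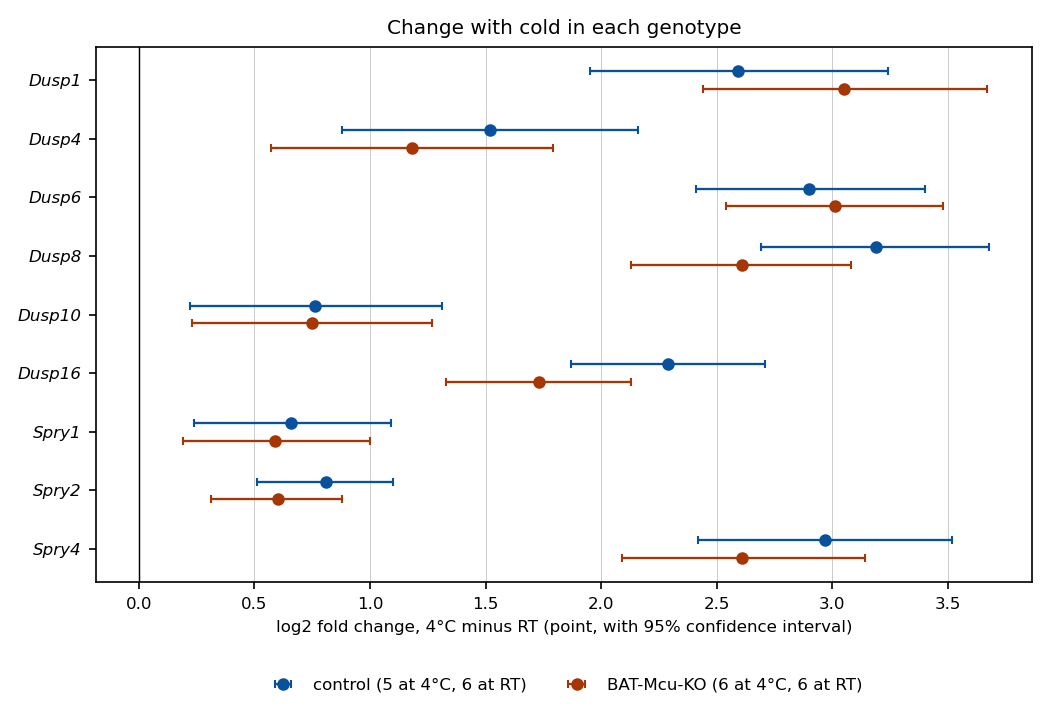
Log2 fold change by cold of the 9 genes, on the scale log2(normalized count + 1), in control (blue) and knockouts (brown). Points are limma estimates and lines their 95% confidence intervals; all 18 intervals lie above 0, from the lowest bound of 0.19 for Spry1 to the highest of 3.68 for Dusp8.

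Across the 5 genes whose groups did not overlap in either genotype (Dusp1, Dusp6, Dusp8, Dusp16 and Spry4), the separation between RT and 4°C held for all 23 mice within their genotypes. Such complete separation upward was seen for 13.0% of all genes in control mice and 12.4% in knockouts. Among all 14651 genes ordered by log2 fold change with cold in control mice, Dusp8 was in place 72, Spry4 92, Dusp6 100, Dusp1 132 and Dusp16 186. The lowest of the 9, Spry1, was in place 2328.

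Per kilobase of exon, the order of the 9 genes also differed between the temperatures. In control mice at RT Dusp1 was highest (200 ± 128 normalized counts per kb, SD, n = 6), followed by Dusp6 (113 ± 55.7), Spry2 (92.1 ± 18.2), Dusp10 (66.5 ± 20.3), Dusp4 (39.2 ± 20.6), Spry1 (21.1 ± 5.63), Dusp16 (19.1 ± 3.65), Spry4 (11.5 ± 2.84) and Dusp8 (4.54 ± 1.34). Only Spry4 and Dusp8 had ranges that did not overlap among the neighbors in this order. In control mice at 4°C Dusp1 (1062 ± 196, n = 5) and Dusp6 (770 ± 94.7) stood apart from all others, the next being Spry2 (161 ± 28.1). Dusp10 (112 ± 25.0), Dusp4 (104 ± 24.7), Spry4 (98.0 ± 44.2) and Dusp16 (97.6 ± 38.6) were indistinguishable within their spread, and Dusp8 (42.0 ± 7.72) and Spry1 (33.4 ± 8.21) came last with overlapping ranges. In knockouts at RT the first 5, Dusp1 (102 ± 66.5, n = 6), Spry2 (86.6 ± 13.9), Dusp6 (83.4 ± 27.8), Dusp10 (70.0 ± 43.8) and Dusp4 (57.0 ± 24.4), overlapped, followed by Dusp16 (22.7 ± 4.38), Spry1 (20.9 ± 5.22), Spry4 (9.97 ± 1.63) and Dusp8 (5.05 ± 2.15). In knockouts at 4°C Dusp1 (750 ± 70.3, n = 6) and Dusp6 (646 ± 34.6) again led, with overlapping ranges, and were apart from Spry2 (131 ± 18.0), Dusp4 (124 ± 38.6), Dusp10 (105 ± 16.3), Dusp16 (77.1 ± 22.9), Spry4 (64.5 ± 24.2), Spry1 (31.7 ± 6.84) and Dusp8 (29.7 ± 3.36). Spry1 thus held place 6 of 9 in control mice at RT and place 9 at 4°C, while Dusp8 moved from place 9 to place 8. In BAT of mixed cell types, more cells of a type and more RNA per cell cannot be told apart.

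The second question of the design is whether the loss of Mcu changes these transcripts at RT or alters their response to cold. At RT none of the 9 genes was called by limma, against 7 of all 14651 genes (0.0478%), and 1 of the 9, Dusp1, had an unadjusted p under 0.05, a level reached by 5.15% of all genes. DESeq2 and edgeR on the recovered reads also called none of the 9. The mean of Dusp1 was 664 ± 423 in control and 339 ± 220 in knockouts at RT (SD, n = 6 each), a log2 difference of −0.95 (SE 0.30, 95% interval −1.56 to −0.33, limma adjusted p = 0.883, from 0.111 to 1 under the alternatives). The ranges overlapped (338 to 1425 in control mice and 162 to 774 in knockouts). Dusp4 had a log2 difference of 0.57 in the other direction (95% interval −0.04 to 1.18), and the remaining 7 genes had log2 differences from −0.36 (Dusp6) to 0.25 (Dusp16), with intervals from −0.83 to 0.65. The signs of Dusp8, Dusp10, Spry1 and Spry2 turned under at least 1 alternative.

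The mice with the highest Dusp1 at RT were also the highest in several, but not all, immediate early genes, which are transcribed within minutes of a stimulus. Control replicates 1 and 2 at RT had the highest Dusp1 (883 and 1425), Dusp6 (474 and 627), Egr1 (1148 and 779), Fos (385 and 97.9) and Jun (409 and 333) of their group. In knockouts at RT replicate 3 had the highest Dusp1 (774), Egr1 (102), Fos (60.1) and Jun (345), but not the highest Dusp6 (293) or Nr4a1 (121, against 477 and 485 in replicates 1 and 2). Egr1, an immediate early transcription factor, was the only gene of the lists used here that was called by genotype at RT, with 83.9, 254 and 1148 in control (lowest, median, highest) and 33.7, 43.0 and 102 in knockouts (log2 difference −2.65, SE 0.42, limma adjusted p = 0.00636, and 0.202 with the groups at 4°C left out of the fit). Without control replicate 1 the Dusp1 difference at RT was −0.82, without control replicate 2 it was −0.69, and without knockout replicate 3 it was −1.22 (adjusted p = 0.999, 0.861 and 0.111). The part of these mice's immediate early genes in the Dusp1 values was not tested.

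At 4°C none of the 9 genes was called between genotypes by limma, DESeq2 or edgeR, against 11 of all genes by limma (0.0751%), and none had an unadjusted p under 0.05 (6.98% of all genes). The log2 differences of 8 of the 9 were negative, with a median of −0.29 beside 0.01 over all genes. The share of negative differences over all genes was not computed. In lists described below, 27 of 35 MAP kinase cascade genes and 13 of 17 immediate early genes were also negative, against 9 of 21 receptor tyrosine kinase ligand genes. The farthest from 0 were Spry4 (−0.53, 95% interval −1.08 to 0.02, limma adjusted p = 0.723), Dusp1 (−0.49, −1.13 to 0.16, adjusted p = 0.797), Dusp8 (−0.48, −0.98 to 0.01, adjusted p = 0.720) and Dusp16 (−0.32, −0.73 to 0.10, adjusted p = 0.800). In group means, Dusp1 was 3516 ± 650 in control (SD, n = 5) and 2483 ± 233 in knockouts (n = 6), Dusp8 205 ± 37.6 and 145 ± 16.4, Spry4 466 ± 210 and 307 ± 115, and Dusp16 761 ± 301 and 602 ± 178. The ranges of the genotypes overlapped for each of the 9 genes, and how many of all genes overlapped in this way was not computed. For the remaining genes the log2 differences were −0.29 (Spry2), −0.25 (Dusp6), −0.07 (Spry1), −0.06 (Dusp10) and 0.23 (Dusp4), and the intervals of all 9 together ran from −1.13 to 0.87. The signs of Dusp10 and Spry1 turned under at least 1 alternative.

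The interaction, the cold response in knockouts minus that in control mice, was called for none of the 9 genes by limma, DESeq2 or edgeR, and none had an unadjusted p under 0.05, which 5.99% of all genes did. Limma and edgeR called 0 genes overall and DESeq2 28. It was −0.58 for Dusp8 (95% interval −1.27 to 0.10), −0.56 for Dusp16 (−1.14 to 0.01), −0.35 for Spry4 (−1.11 to 0.41), −0.34 for Dusp4 (−1.22 to 0.54) and −0.21 for Spry2 (−0.62 to 0.20), with limma adjusted p from 0.841 to 0.935. It was 0.46 for Dusp1 (−0.43 to 1.35) and between −0.07 and 0.11 for Dusp6, Dusp10 and Spry1, whose signs turned under at least 1 alternative. The intervals allow a response of the strongly changed genes that differs between genotypes by −1.27 to 1.35 on the log2 scale, so equal responses are not shown.

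**Figure D4:**
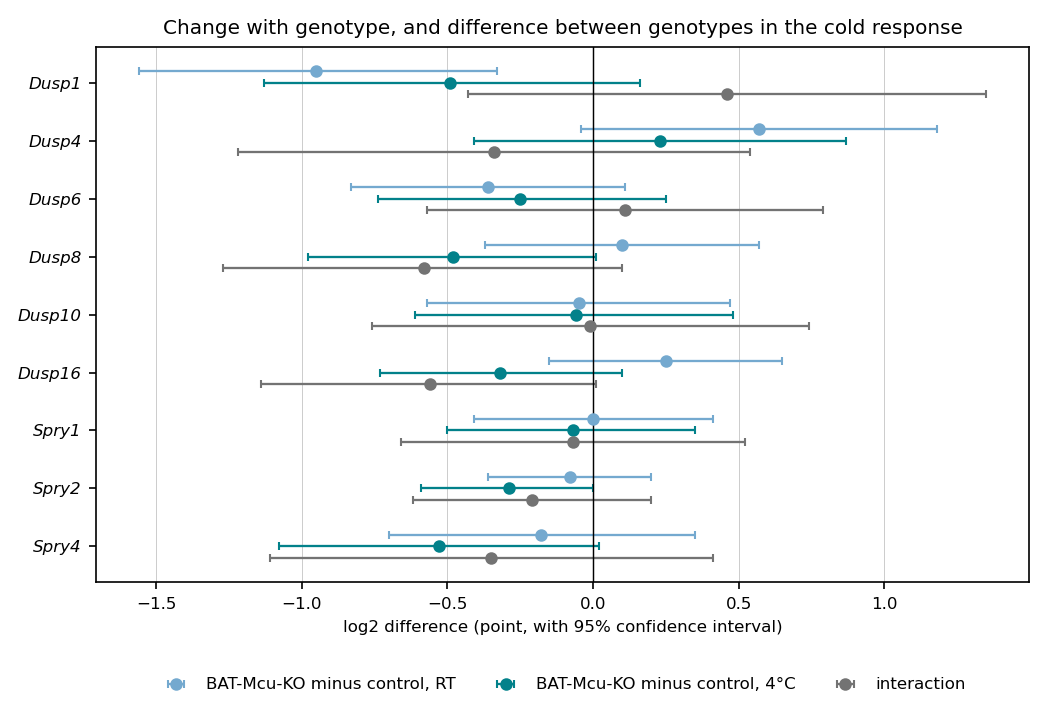
Log2 difference of BAT-Mcu-KO from control mice at RT and at 4°C, and the interaction, for the 9 genes. Points are limma estimates and lines their 95% confidence intervals, from a spread shared by all 4 groups. The interval excludes 0 for Dusp1 at RT alone (−1.56 to −0.33), which did not pass the adjusted test. Dusp1 varied more at RT than at 4°C, so this interval may be too narrow.

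Other genes of the pathway were counted in lists, to set the 9 beside their surroundings. Of 17 cyclic AMP and CREB targets 15 were called higher and 0 lower with cold in control mice, and 14 and 0 in knockouts. Dio2, which activates thyroid hormone in the tissue, rose by 5.19 on the log2 scale (limma adjusted p = 8.9e-12) and Ppargc1a, the coactivator of mitochondrial genes, by 5.10 (adjusted p = 2.0e-14) in control mice. The nuclear receptors Nr4a3 (4.73, adjusted p = 4.4e-08) and Nr4a1 (4.25, adjusted p = 5.4e-09) rose as well. The list had a median log2 fold change of 1.76 in control and 1.73 in knockouts.

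Of 17 immediate early genes, which include Nr4a1, 8 were called higher and 1 lower in control mice, and 9 and 0 in knockouts. Atf3, a stress-responsive transcription factor, rose from 9.54 ± 4.89 to 452 ± 185 in control mice (SD, n = 6 and 5; log2 fold change 5.49, limma adjusted p = 1.2e-11), and by 3.78 (adjusted p = 3.0e-09) in knockouts. Fosl2, an AP-1 subunit, rose by 2.42 (adjusted p = 1.1e-09) and 2.68 (adjusted p = 9.0e-11). Jun, another, rose by 1.72 (adjusted p = 1.4e-06) and 1.62 (adjusted p = 1.9e-06). Fos and Egr1 are classical ERK-responsive genes. Fos had log2 fold changes of −0.56 (adjusted p = 0.574) and 1.20 (adjusted p = 0.190), and in knockouts it was called higher without the muscle-rich libraries (2.01, adjusted p = 0.0437) and without knockout replicate 3 at RT (1.76, adjusted p = 0.0419). Egr1 fell in control mice (−2.10, adjusted p = 3.6e-04) and had 0.52 in knockouts (adjusted p = 0.339). The interaction of Egr1 was 2.62 (adjusted p = 0.700). Fosb, Egr3 and Egr4 were not analysed here.

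Of 6 other ERK output genes 2 were called higher and 1 lower in control mice, and 3 and 0 in knockouts. The receptor gene Epha2 rose by 2.10 (limma adjusted p = 2.3e-06) and 1.84 (adjusted p = 8.6e-06), and the cyclin gene Ccnd1 by 0.86 (adjusted p = 0.00700, and 0.0693 without the muscle-rich libraries) and 1.17 (adjusted p = 3.1e-04). Ier3 fell by 0.77 on the log2 scale in control mice (adjusted p = 0.00366) and had −0.16 in knockouts (adjusted p = 0.538). Phlda1 and Etv4 were not analysed here.

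Among 35 genes of the MAP kinase cascade 11 were called higher and 5 lower in control mice and 9 and 5 in knockouts, with medians of 0.18 and 0.05. The p38 effector kinase gene Mapkapk2 rose by 1.84 (limma adjusted p = 1.3e-09) and 1.69 (adjusted p = 2.4e-09), and the upstream kinase gene Map3k8 by 1.30 (adjusted p = 9.0e-04) and 1.27 (adjusted p = 8.0e-04). Map2k6, which activates p38, fell with −2.13 (adjusted p = 4.3e-04) and −1.90 (adjusted p = 9.0e-04; 0.0555 without the muscle-rich libraries).

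Of 20 receptor tyrosine kinase genes 8 were called higher and 4 lower in control mice, and 5 and 7 in knockouts. Kit fell with −2.84 (limma adjusted p = 2.4e-08) and −1.98 (adjusted p = 3.4e-06), while Fgfr3 rose by 1.39 (adjusted p = 7.6e-04) and 1.00 (adjusted p = 0.00863) and the endothelial receptor gene Kdr by 1.16 (adjusted p = 8.7e-06) and 1.11 (adjusted p = 9.3e-06). Ret rose by 1.12 in control mice (adjusted p = 0.0363) and had −0.14 in knockouts (adjusted p = 0.813). The Ret call in control mice was lost with 75th percentile scaling (0.0520) and without the muscle-rich libraries (0.232). It was also lost without control replicate 3 (0.0558), 5 (0.0784) or 6 (0.0665) at RT, or replicate 2 (0.0793) or 5 (0.0867) at 4°C. Of 21 ligand genes 5 were called higher and 5 lower in control mice, and 6 and 7 in knockouts. The hormone gene Fgf21 rose by 5.29 (adjusted p = 1.6e-07) and 2.74 (adjusted p = 5.5e-04) and Fgf9 by 1.97 (adjusted p = 7.7e-04) and 2.16 (adjusted p = 1.9e-04). Fgf16 fell with −2.02 (adjusted p = 1.6e-04) and −1.44 (adjusted p = 0.00302), and Igf1 with −1.82 (adjusted p = 7.9e-07) and −1.47 (adjusted p = 9.0e-06). Btc, a ligand of the epidermal growth factor receptor, was the only gene of the lists called by genotype at 4°C, with 218 in control and 500 in knockouts on average (log2 difference 1.13, adjusted p = 0.0354). This call was lost under the replicate block (0.0568), with limma without the trend (0.0991), with the groups at RT left out of the fit (0.287) and without the muscle-rich libraries (0.373). Leaving out 1 mouse lost it too for control replicates 1, 2 and 5 at 4°C (0.0668, 0.0598 and 0.13) and control replicate 5 at RT (0.0517). The same held for knockout replicates 1, 3, 4 and 6 at 4°C (0.0813, 0.115, 0.127 and 0.0555).

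**Figure D5:**
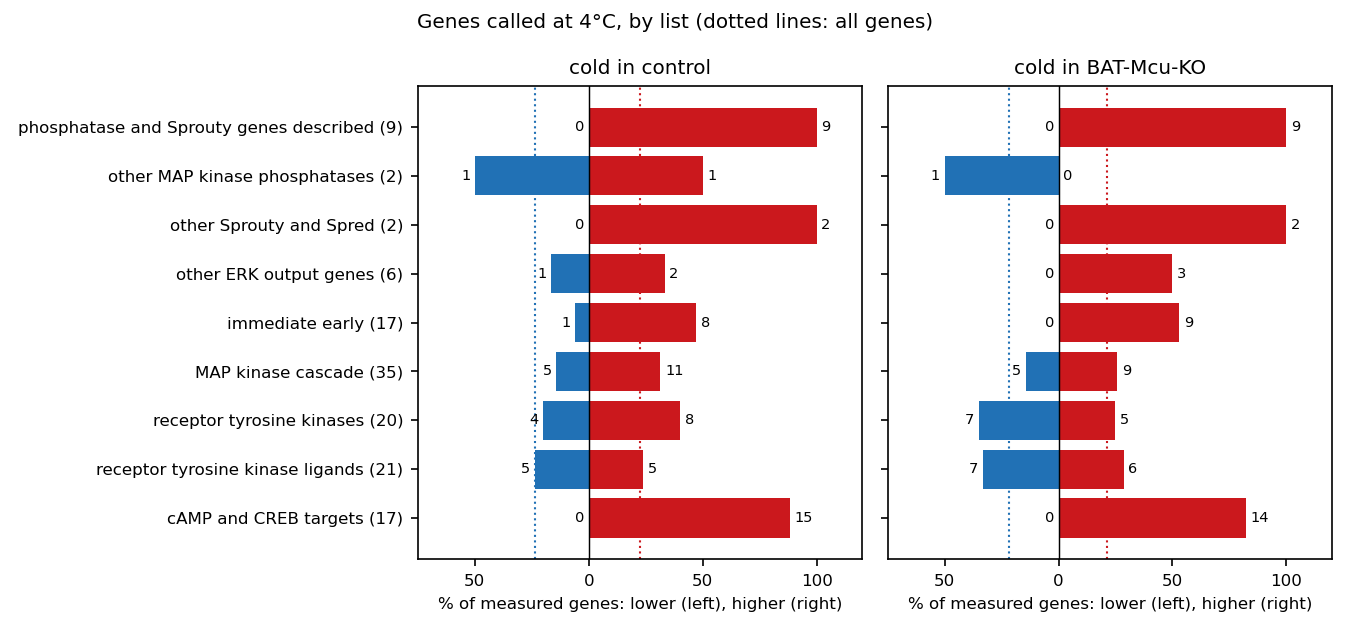
Percent of the measured genes of each list called higher (red, right) or lower (blue, left) at 4°C than at RT in control and knockouts, with the number called beside each bar and the number measured in brackets. Dotted lines give the share of all genes called in each direction; the 9 genes described here and the 17 cyclic AMP and CREB targets stand to the right with 0 called lower in either genotype.

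Markers of brown adipocytes and of other cell types also differed with temperature. Of 8 brown adipocyte markers 4 were called higher and 2 lower in control mice and 3 and 0 in knockouts. Their summed count in control mice was 180832 to 251188 at RT and 269012 to 326394 at 4°C. In knockouts it was 180447 to 202827 and 286971 to 321368. Without Ucp1, the sum of the other 7 was 127687 to 181759 at RT and 119810 to 147374 at 4°C in control mice, and 126384 to 149682 and 134696 to 158938 in knockouts. Elovl3, a fatty acid elongase gene, rose by 2.55 (limma adjusted p = 9.5e-08) and Ucp1 by 1.37 (adjusted p = 1.0e-10) in control mice. Pparg (0.51, adjusted p = 6.4e-04) and Plin1 (0.47, adjusted p = 0.0241) rose less there, and Plin1 was not called under quantile normalization (0.140), with 75th percentile scaling (0.0722) or without the muscle-rich libraries (0.0536). The Plin1 call was also lost without control replicate 6 at RT (0.0569) and without control replicate 3 (0.0853) or 5 (0.0776) at 4°C. The markers called lower in control mice, named here after their values were seen, were Cidea (−0.32, adjusted p = 0.00919) and Adipoq (−0.38, adjusted p = 0.0115). Neither was called without the muscle-rich libraries (0.105 and 0.188), and Cidea was not called with quantile normalization (0.309) or with only the compared groups (0.0589). Of 6 endothelial markers 2 were called higher and 2 lower in control mice, and their sum was 3243 to 4753 at RT and 5158 to 7991 at 4°C. Pecam1 rose by 0.93 (adjusted p = 1.8e-07), Tie1 fell with −0.69 (adjusted p = 5.9e-04), and Emcn fell with −0.42 (adjusted p = 0.00410) but had 0.01 in knockouts (adjusted p = 0.927). In knockouts 2 endothelial markers were called higher and 1 lower, with sums of 3454 to 4629 at RT and 4792 to 6641 at 4°C.

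Of 5 mural markers 0 were called higher and 3 lower in control mice (1 and 2 in knockouts). These were Cspg4 (−2.17, limma adjusted p = 7.4e-11), Notch3 (−0.75, adjusted p = 9.1e-05) and Rgs5 (−0.40, adjusted p = 0.0487; 0.0560 by edgeR, 0.0747 without the trend, 0.0506 with only the compared groups and 0.316 without the muscle-rich libraries). Leaving out 1 mouse also lost the Rgs5 call in several fits, with a limma adjusted p up to 0.192 (without control replicate 5 at 4°C). Of 5 macrophage markers 1, C1qa, was called higher in control mice (0.61, adjusted p = 0.00245) and 3 in knockouts. None of 5 fibroblast and preadipocyte, 5 skeletal muscle, 4 Schwann cell and 2 lymphocyte markers was called in control mice, and in knockouts 1, 0, 1 and 1 were. Cd3e and Ms4a1, which define T and B lymphocytes, were not analysed here. Which cells carried the 9 transcripts was not measured, and the part of the cell types in their rise was not tested.

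Within groups the 9 genes did not move as a block. After the mean of its group was taken from each mouse's log2 value, the 36 pairs among the 9 had a Pearson r between −0.51 (Dusp16 and Spry4) and 0.58 (Dusp1 and Dusp6), with a median of 0.10 over 23 mice. Control replicate 1 at 4°C, for example, had the highest Dusp16 (1280) and the lowest Spry4 (192) of its group, together with the highest Jun (1345) and Atf3 (771). Dusp8 and Spry1 (r = 0.52) were the next pair after Dusp1 and Dusp6. These are descriptions over mice that also share library depth and composition.

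Among the 9531 genes whose mean normalized count reached 50, those with the highest r to each of the 9 in these deviations were, apart from Pde4d of the cyclic AMP list, on none of the lists used here. For Dusp1 they were Faf2 (r = 0.76), Slc4a7 (0.74) and Perm1 (0.72). For Dusp4 they were Lrp12 (r = 0.75), Urm1 (0.74) and Tom1l2 (0.72). For Dusp6 they were Ahsa1 (r = 0.71), Axin2 (0.69) and Gk (0.68). Axin2 encodes a feedback inhibitor of Wnt signaling, and Gk encodes glycerol kinase. For Dusp8 they were 2810403D21Rik (r = 0.67), Nosip (0.65) and Tmem50a (0.61). For Dusp10 they were Id3 (r = 0.78), Sh3pxd2a (0.77) and Reep3 (0.74). Id3 encodes an inhibitor of DNA binding by helix-loop-helix factors. For Dusp16 they were Akap13 (r = 0.82), Tet2 (0.78) and Pde4d (0.76). Akap13 encodes an anchor of protein kinase A, and Pde4d a phosphodiesterase that breaks down cyclic AMP. The Dusp16 values include the 1280 of control replicate 1 at 4°C, against 527 to 734 in the rest of its group. The r without this mouse was not computed. For Spry1 they were Jam3 (r = 0.68), Cnppd1 (0.63) and Hr (0.62). For Spry2 they were Cd74 (r = 0.75), Eda (0.72) and Nhlrc3 (0.69). For Spry4 they were E130309D02Rik (r = 0.83), Wdr4 (0.80) and Trak2 (0.78). None of the 9 was among the 3 leading genes of another. Each list holds the highest r among 9531 genes, and the r that unrelated genes would reach by such a choice was not computed. Whether the listed genes share a pathway with the 9 was not tested.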

How the data were processed

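BAT RNA from 23 mice had been made into Smart-seq2 libraries. Per the labels and the study's methods, the authors aligned paired reads to mm10 (GENCODE M7) with STAR 2.4.0j, counted uniquely mapped exonic reads irrespective of strand with HTSeq, and kept those genes for which 6 or more samples held 8 or more reads. The deposited signal is the normalized count: a gene's reads over its sample's DESeq2 size factor. In every sample these values were whole multiples of 1 read within 0.01 read for 100% of values, which gave back the reads. The deposited table of the authors' own comparisons (log2 fold changes, folds and p-values) was not used. No column of per-sample values was left out (0); 19 symbols had been turned into dates, and none is named.

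Because the values are not raw counts, the test was limma 3.58.1 (R 4.3.3) on log2(normalized count + 1) with 4 group means, all 23 samples and a variance trend, adjusted by Benjamini-Hochberg over 14651 genes. Intervals are 95% confidence intervals for a difference between group means or for the interaction, from a spread shared by the 4 groups. They rest on these mice alone and do not describe the spread between mice. The alternatives were pseudocounts of 0.5 and 10, a mean minimum of 50, quantile normalization, 75th percentile scaling, no trend, only the compared groups, the replicate number as a block, DESeq2 1.42.0 and edgeR 4.0.16 (quasi-likelihood) on recovered reads, each sample left out, and, added later, 5 muscle-rich libraries left out (summed Acta1, Ckm, Mylpf, Myh4 and Tnnt3 over 10 times the median). The fits were tested on simulated counts.

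The genes and lists were chosen with earlier results of these data known. Named were the 9 genes, Mcu, Fos, Jun, Egr1, Atf3, up to 4 called genes per list with the largest change by cold in control mice, every listed gene called by genotype, and 3 genes per member by likeness. A listed gene that this rule names is not reported here. Exon lengths and positions come from GENCODE M21 and promoters from RefSeq. Tables and figures were made with Python 3.11.15, pandas 2.3.3, numpy 2.4.6 and matplotlib 3.10.9. Depth was 7129271 to 21006347 reads. The reads carry no molecular identifiers, so copies made by amplification cannot be told apart from separate molecules.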

Additional observations from a re-analysis of the deposited data

Results flagged for a closer look

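In 36 groups of mice (9 genes in 4 groups), 5 held a mouse set apart from the rest by more than Dixon's 95% critical value. Chance flags about 1 in 20 groups. Dusp1 in BAT-Mcu-KO replicate 3 at RT was 774, against 162 to 338 in the other mice of the group. This mouse also had the highest Egr1 (102) and Fos (60.1) of its group and was 1 of the 5 muscle-rich libraries. Dusp10 in control replicate 2 at 4°C was 206, against 350 to 386, and this library was muscle-rich as well. Dusp10 in BAT-Mcu-KO replicate 5 at RT was 473, against 113 to 211. Dusp10 in BAT-Mcu-KO replicate 2 at 4°C was 226, against 312 to 362. Dusp16 in control replicate 1 at 4°C was 1280, against 527 to 734. Dusp10 accounted for 3 of the 5.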

How the results depend on the processing

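With cold, each of the 9 genes kept its direction under every alternative, and all 9 were called in control mice in each of them but 1: without the 5 muscle-rich libraries Spry1 was not called. In knockouts the calls lost were those of Dusp10 and Spry1 named above. Leaving out 1 sample gave 9 of 9 calls in control mice and 8 to 9 in knockouts. None of the 9 was called by genotype or in the interaction under any alternative. No cause of a lost call was tested.

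Uncalled differences near 0 changed sign. Between genotypes at RT, Dusp8 was −0.08 without the muscle-rich libraries, Dusp10 was 0.07 by DESeq2, 0.07 by edgeR and 0.15 without the muscle-rich libraries, and Spry1 was −0.00 with a pseudocount of 10, −0.03 with quantile normalization, −0.03 with 75th percentile scaling, −0.01 by DESeq2 and −0.01 by edgeR. In the interaction Dusp6 was −0.09 without the muscle-rich libraries, and Dusp10 was 0.04 with quantile normalization and 0.05 with 75th percentile scaling. For cold in knockouts the marker Emcn was −0.02 and −0.04 with these scalings and −0.05 to 0.07 with 1 sample left out.

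Leaving out 1 sample, the log2 differences between genotypes at RT ran from −0.06 to 0.25 for Dusp8, −0.32 to 0.09 for Dusp10, −0.13 to 0.12 for Spry1 and −0.15 to 0.01 for Spry2. At 4°C they ran from −0.24 to 0.03 for Dusp10 and −0.17 to 0.04 for Spry1. The interaction ran from −0.08 to 0.25 for Dusp6, −0.18 to 0.26 for Dusp10 and −0.19 to 0.05 for Spry1. With cold, Fos ran from −1.06 to 0.07 in control mice and Ret from −0.32 to 0.21 in knockouts.

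The number of all genes called by genotype at RT was 7, but 3 when the fit held no other groups and 20 by DESeq2. At 4°C it was 11, and 7 without the trend, 2 when the fit held no other groups, 23 by DESeq2, 6 by edgeR, 2 without the muscle-rich libraries and 3 to 16 with 1 sample left out (3 without control replicate 2, 7 without control replicate 5 and 6 without knockout replicate 4). The interaction gave 0 genes, 28 by DESeq2 and 0 to 1 with 1 sample left out (1 without control replicate 1 at 4°C).

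Mice of different groups share replicate numbers in the labels, but not every same-numbered pair deviated together. Between genotypes at 4°C r was above 0.1 in 4 of 5 pairs (0.00422 to 0.427), and between the temperatures in knockouts it was below 0 in 6 of 6 (−0.364 to −0.000754), so the numbers were not taken to pair the mice. Blocking on the replicate number gave 7 called genes by genotype at 4°C and changed no call of the 9 genes.

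Depth limits Dusp8 most, with 11 to 45 reads per mouse at RT.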
